A study of Homo sapiens with 24 samples.

Results

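The genes described here are 39 glycolysis, pentose phosphate and pyruvate genes, chosen by gene symbol in the array's platform annotation. Of these, 35 had a detected probe and are 35 of the 10246 genes tested. SLC16A1 and SLC16A3, the lactate transporters, had no probe under these symbols and are not analysed here. ENO2 and PDK1 had a probe that was not detected on any array. The cells were P493, a human B cell line in which a tetracycline-repressible MYC transgene is switched off by tetracycline (TET) and on again when it is removed. MST-312, a compound that inhibits telomerase, was given together with TET for 48 h and kept in the TET-free medium into which the cells were then released. The 8 groups, of 3 Illumina beadchip arrays each, were cells with MST-312 and untreated cells (treatment none) at 0, 4, 8 and 24 h after release. The labels do not say when the untreated cells received TET, so its effect and that of MST-312 cannot be told apart. The labels number the replicates but name no separate cultures, so p-values measure only the spread between these samples, which may be technical. P493 is 1 line, and no other line was measured.

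Glycolysis splits glucose into pyruvate in the cytosol. Hexokinase, phosphofructokinase and pyruvate kinase catalyse its irreversible steps, lactate dehydrogenase turns pyruvate into lactate, and the pyruvate dehydrogenase complex feeds it into the citric acid cycle. The pentose phosphate pathway branches off at glucose 6-phosphate and supplies NADPH and ribose 5-phosphate for nucleotides. MYC is known to activate many of these genes directly, LDHA among them, and proliferating B cells use much glucose.

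Between 34.3% and 38.0% of the 47322 probes were detected on each array (detection p below 0.05), and the mean raw intensity lay between 527 and 764. Values below are log2 intensities after background correction and quantile normalization, called readings, and a difference or change is on that log2 scale. They are relative to the rest of each array, since total RNA per cell was not measured. A probe's reading does not give a level that can be set against another gene's. In bulk cells, fewer cells of a type and less RNA per cell cannot be told apart. Of 8 B cell markers with a probe, 6 were detected on all 24 arrays (MS4A1, CD79A, CD79B, CD22, CD74 and CD40), while PAX5 and CR2 were not detected in any whole group. Their summed raw intensity was 35898 to 59404 in MST-312 cells and 43406 to 87364 in untreated cells. At 0 h 5 of these 6 were lower in MST-312 cells, against 31.7% of all genes tested. CD40 stood at -1.59 and CD74 at -1.24, and MS4A1 was higher at 1.19, though its other probe gave -0.84. CD79B was lower at -0.31 on the probe used, and its other probes gave 0.11 and -0.07. All 6 fell by 24 h after release in both treatments, with medians of -0.85 in MST-312 cells and -1.39 in untreated cells. By then 26.5% of all genes tested were lower in MST-312 cells and 30.5% in untreated cells. Some markers of other cell types also differed between treatments, with ITGAM at -2.75 and EPCAM at 2.12 at 0 h (MST-312 minus untreated; adjusted p = 2.17e-10 and 1.11e-12). CD14 went the other way from ITGAM, at 0.37 at 0 h, which did not pass, and 0.91 at 24 h, while LYZ stood at -1.53 and -1.85. Of 5 monocyte markers, CD14, LYZ and ITGAM were detected in a group, with a summed raw intensity of 532 to 922 in MST-312 cells and 879 to 2947 in untreated cells. Of 7 epithelial and fibroblast markers, EPCAM and COL1A1 were detected, with sums of 550 to 1546 in MST-312 cells and 299 to 781 in untreated cells. Of 6 T cell markers, CD3G and CD2 were, with sums of 229 to 340 in MST-312 cells and 297 to 418 in untreated cells. CD3D, CD3E, CD8A, CD5, CSF1R, FCGR1A, KRT8, KRT18, KRT19, COL1A2 and DCN were not detected in any whole group. The part of all these markers in the results was not tested. MYC itself read 13.88, 13.84 and 13.77 in MST-312 cells against 14.18, 13.98 and 14.01 in untreated cells at 0 h. MST-312 minus untreated was -0.23, 0.05, 0.03 and 0.38 at 0, 4, 8 and 24 h, of which the 24 h value passed (adjusted p = 0.00334), and the 0 h value passed with the replicate number as a block within each time (-0.23, adjusted p = 0.0493). MYC was higher 24 h after release in both treatments, by 1.31 in MST-312 cells and 0.70 in untreated cells (SE 0.10; adjusted p = 1.90e-09 and 5.77e-06). The second MYC probe gave 1.38 and 1.05, and 0.24 for MST-312 minus untreated at 24 h, so the wider gap rests on 1 probe. Whether its probe reads the transgene was not analysed here.

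The first question was how MST-312 cells differed from untreated cells at each time. Most of the genes read lower with MST-312, at every time. At 24 h, 30 of the 35 were lower in MST-312 cells, 3 higher and 2 did not pass (limma, adjusted p below 0.05), against 32.9% of all genes lower and 28.9% higher. At 0 h 25 were lower and 4 higher (all genes: 31.7% lower, 27.6% higher). At 4 h 26 were lower and 4 higher (32.9% and 26.5% of all genes), and at 8 h 26 were lower and 3 higher (32.2% and 25.6%). The median difference over the 35 was -0.46, -0.54, -0.52 and -0.65 at 0, 4, 8 and 24 h, against -0.02, -0.04, -0.03 and -0.03 over all genes tested. Of the lower calls, 21 of 25, 25 of 26, 25 of 26 and 29 of 30 passed under all 38 alternatives (2 of which gave the same values), and of the higher calls 2 of 4, 1 of 4, 1 of 3 and 2 of 3. Scaling arrays to a common median instead moved the median of all genes to -0.14, -0.29, -0.26 and -0.17 at the same times, and gave 2 higher and 27 lower at 0 h, 1 and 29 at 4 h, 1 and 31 at 8 h, and 2 and 31 at 24 h. The shares of all genes moved as well. Under this scaling 36.2%, 45.2%, 43% and 38.9% of all genes were lower at 0, 4, 8 and 24 h. Those higher were 18.4%, 14%, 13.8% and 19.7%.

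**Figure D1:**
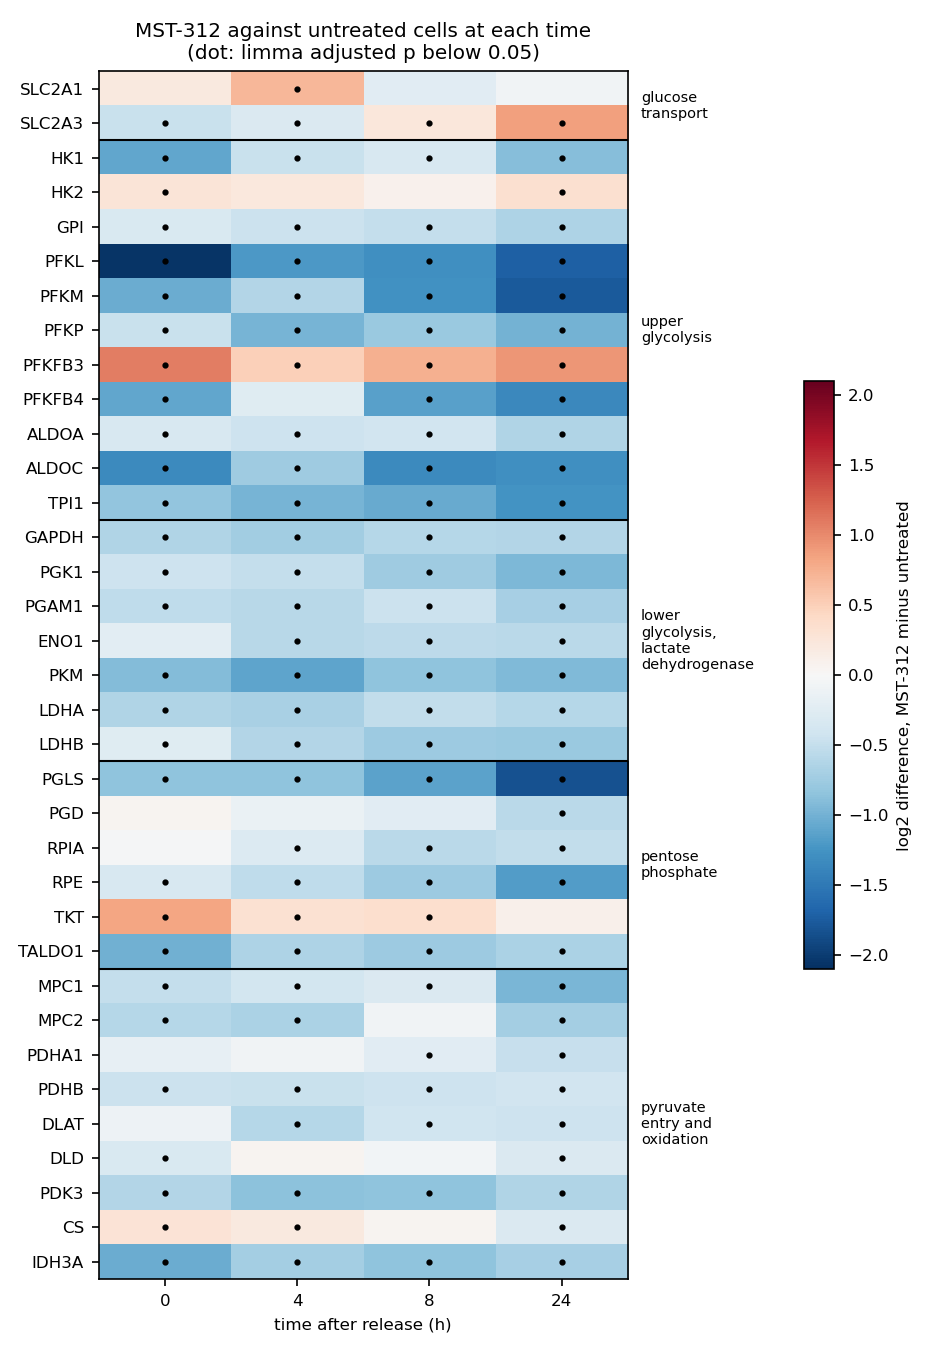
Heat map of MST-312 minus untreated (log2) for the 35 genes with a detected probe, in rows by role, at 0, 4, 8 and 24 h in columns. Blue is lower and red higher in MST-312 cells, and cells with a dot passed limma's test. Most rows are blue at every time, with PFKL at -2.05 at 0 h among the darkest, while PFKFB3 stays red from 0.50 to 1.07.

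The 2 glucose transporters with a probe behaved unlike each other. SLC2A1 encodes GLUT1, the widespread basal transporter, and SLC2A3 encodes the high-affinity GLUT3. In MST-312 cells SLC2A1 read 10.53, 10.75 and 10.59 at 0 h, 9.95, 9.86 and 9.91 at 4 h, 9.89, 9.96 and 9.75 at 8 h, and 9.69, 9.61 and 10.03 at 24 h. Untreated cells gave SLC2A1 readings of 10.35, 10.50 and 10.38 at 0 h, 9.30, 9.16 and 9.15 at 4 h, 10.09, 10.03 and 10.18 at 8 h, and 9.77, 9.83 and 9.95 at 24 h. SLC2A1 arrays of MST-312 cells lay above every untreated array at 0 and 4 h and below every untreated array at 8 h, and the treatments overlapped at 24 h. For SLC2A1, MST-312 minus untreated was 0.21, 0.70, -0.23 and -0.07 at 0, 4, 8 and 24 h (SE 0.10; adjusted p = 0.0728, 3.63e-06, 0.0506 and 0.542). In this fit SLC2A1 passed at 4 h alone, and with the replicate number as a block within each time those at 0 h (0.21, adjusted p = 0.0380) and 8 h (-0.23, adjusted p = 0.0254) passed as well. Against 0 h, SLC2A1 stood at -0.72, -0.75 and -0.84 in MST-312 cells and at -1.21, -0.31 and -0.56 in untreated cells at 4, 8 and 24 h (SE 0.10; adjusted p at 24 h = 4.77e-07 and 5.85e-05). SLC2A1 was thus lower than at 0 h in both treatments by 24 h. The SLC2A3 probe read 11.05, 11.18 and 10.98 at 0 h, 11.08, 10.99 and 10.82 at 4 h, 10.82, 10.95 and 10.84 at 8 h, and 10.61, 10.62 and 10.40 at 24 h in MST-312 cells. For SLC2A3, untreated readings were 11.59, 11.46 and 11.56 at 0 h, 11.28, 11.39 and 11.13 at 4 h, 10.63, 10.72 and 10.56 at 8 h, and 9.73, 9.78 and 9.53 at 24 h. SLC2A3 arrays of MST-312 cells lay above every untreated array at 8 and 24 h and below every untreated array at 0 and 4 h. The SLC2A3 difference, MST-312 minus untreated, was thus -0.46, -0.31, 0.23 and 0.86 at 0, 4, 8 and 24 h (SE 0.10; adjusted p = 0.000285, 0.00931, 0.0429 and 1.21e-07). SLC2A3 was lower with MST-312 at 0 and 4 h and higher at 8 and 24 h, though its 8 h value turned to -0.11 under median scaling. After release SLC2A3 differed from its 0 h mean by -0.11, -0.20 and -0.53 in MST-312 cells and -0.27, -0.90 and -1.86 in untreated cells at 4, 8 and 24 h (SE 0.10; adjusted p at 24 h = 9.66e-05 and 1.77e-12). The fall of SLC2A3 after release was smaller in MST-312 cells, with an interaction of 1.33 (SE 0.13, adjusted p = 3.06e-07) at 24 h. The SLC2A3 difference at 4 h was no longer called under a fit to the compared arrays alone, or on leaving out replicate 2 of untreated 4 h or replicate 3 of MST-312 4 h (-0.31 to -0.23, adjusted p 0.0521 to 0.0617). The SLC2A3 difference at 8 h was no longer called under median scaling, no filter on dim probes or a fit to the compared arrays alone, or on leaving out replicate 1 or 3 of untreated 8 h or replicate 1, 2 or 3 of MST-312 8 h (-0.11 to 0.26, adjusted p 0.0517 to 0.460). The SLC2A1 value at 0 h passed on leaving out replicate 3 of MST-312 24 h (0.21, adjusted p = 0.0347). The SLC2A1 value at 8 h passed under quantile normalization alone, median scaling, an offset of 50, the authors' processed values, a stricter detection limit, the mean of all passing probes, an intensity trend or array weights, or on leaving out replicate 2 of untreated 8 h, replicate 2 of MST-312 0 h, replicate 2 of MST-312 8 h or replicate 2 or 3 of MST-312 24 h (-0.55 to -0.21, adjusted p 0.000388 to 0.0494). The SLC2A1 value at 24 h passed under median scaling (-0.29, adjusted p = 0.0430). The SLC2A1 24 h interaction passed on leaving out replicate 3 of MST-312 24 h (-0.41, adjusted p = 0.0192).

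Upper glycolysis runs from hexokinase to triose phosphates. Of its 11 genes, 9 were lower in MST-312 cells at 0 h, 8 at 4 h, 9 at 8 h and 9 at 24 h, with a median difference of -0.82, -0.47, -0.78 and -0.99. The shares of all genes lower were 31.7%, 32.9%, 32.2% and 32.9% at these times. The hexokinases, which trap glucose as glucose 6-phosphate, differed. HK1 is the widespread form. It was 2.14-fold lower in MST-312 cells at 0 h and 1.27-fold lower at 8 h. HK1 read 9.78, 9.65 and 9.56 at 0 h, 9.68, 9.60 and 9.59 at 4 h, 9.70, 9.59 and 9.51 at 8 h, and 9.52, 9.43 and 9.33 at 24 h with MST-312. In untreated cells HK1 read 10.77, 10.78 and 10.72 at 0 h, 10.16, 10.13 and 10.00 at 4 h, 10.05, 9.89 and 9.89 at 8 h, and 10.44, 10.30 and 10.22 at 24 h. HK1 arrays of MST-312 cells lay below every untreated array at 0, 4, 8 and 24 h. This gave HK1 differences of -1.10, -0.47, -0.34 and -0.90 at 0, 4, 8 and 24 h (SE 0.08; adjusted p = 6.10e-10, 5.64e-05, 0.00157 and 1.14e-08). HK1 minus its 0 h mean was -0.04, -0.06 and -0.23 with MST-312 and -0.66, -0.82 and -0.43 in untreated cells at 4, 8 and 24 h (SE 0.08; adjusted p at 24 h = 0.0248 and 0.000149). The HK1 24 h change in MST-312 cells was no longer called under median scaling or a fit to the compared arrays alone, or on leaving out replicate 1 of MST-312 0 h or replicate 3 of MST-312 24 h (-0.23 to -0.05, adjusted p 0.0985 to 0.803). The HK1 24 h change in untreated cells was no longer called under median scaling (-0.19, adjusted p = 0.225).

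HK2, the inducible form and a known MYC target, rose after release in both treatments with treatment differences of at most 0.33. In MST-312 cells HK2 read 8.13, 8.46 and 8.57 at 0 h, 8.99, 9.31 and 9.11 at 4 h, 9.59, 9.49 and 9.60 at 8 h, and 9.60, 9.62 and 9.84 at 24 h. Untreated cells gave HK2 readings of 8.12, 8.16 and 8.04 at 0 h, 8.76, 8.86 and 9.12 at 4 h, 9.38, 9.52 and 9.49 at 8 h, and 9.46, 9.24 and 9.35 at 24 h. HK2 arrays of MST-312 cells lay above every untreated array at 24 h, and the treatments overlapped at 0, 4 and 8 h. For HK2, MST-312 minus untreated was 0.28, 0.22, 0.10 and 0.33 at 0, 4, 8 and 24 h (SE 0.12; adjusted p = 0.0443, 0.104, 0.50 and 0.0166). The second passing HK2 probe gave -0.20, -0.17, -0.10 and 0.01 at 0, 4, 8 and 24 h, so the small higher calls rest on 1 probe. Against 0 h, HK2 stood at 0.75, 1.17 and 1.30 in MST-312 cells and at 0.81, 1.36 and 1.25 in untreated cells at 4, 8 and 24 h (SE 0.12; adjusted p at 24 h = 1.05e-08 and 1.10e-08). That second probe changed by 0.99 in MST-312 cells and 0.78 in untreated cells by 24 h. The HK2 difference at 0 h was no longer called under quantile normalization alone, median scaling, cyclic loess, the authors' processed values, no filter on dim probes, the mean of all passing probes, array weights or a fit to the compared arrays alone, or on leaving out replicate 1, 2 or 3 of untreated 0 h, replicate 3 of untreated 8 h, replicate 3 of untreated 24 h, replicate 2 or 3 of MST-312 0 h, replicate 3 of MST-312 4 h or replicate 3 of MST-312 8 h (0.04 to 0.30, adjusted p 0.0502 to 0.856). The HK2 difference at 24 h was no longer called under median scaling or the mean of all passing probes, or on leaving out replicate 2 of untreated 24 h or replicate 3 of MST-312 24 h (0.15 to 0.28, adjusted p 0.0724 to 0.356). The HK2 value at 4 h passed on leaving out replicate 3 of untreated 4 h (0.33, adjusted p = 0.0274). GPI, which makes fructose 6-phosphate, differed by -0.32, -0.46, -0.50 and -0.65 at 0, 4, 8 and 24 h (SE 0.13; adjusted p = 0.0367, 0.00393, 0.00194 and 0.000152). The GPI difference at 0 h was no longer called under no filter on dim probes, or on leaving out replicate 1, 2 or 3 of untreated 0 h or replicate 1 or 3 of MST-312 0 h (-0.34 to -0.20, adjusted p 0.0506 to 0.210).

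Phosphofructokinase, the main control point of glycolysis, has a liver-type, a muscle-type and a platelet-type subunit, encoded by PFKL, PFKM and PFKP. All 3 were lower in MST-312 cells at every time. PFKL was 4.14-fold lower at 0 h, and PFKM 3.39-fold lower at 24 h. The PFKL probe read 6.74, 6.54 and 6.69 at 0 h, 7.64, 7.26 and 7.36 at 4 h, 7.50, 6.77 and 7.20 at 8 h, and 6.27, 6.62 and 6.94 at 24 h in MST-312 cells. For PFKL, untreated readings were 8.55, 8.72 and 8.86 at 0 h, 8.41, 8.74 and 8.71 at 4 h, 8.84, 8.08 and 8.41 at 8 h, and 8.49, 8.34 and 8.12 at 24 h. No MST-312 array reached an untreated PFKL array of the same time. The PFKL difference, MST-312 minus untreated, was thus -2.05, -1.20, -1.29 and -1.71 at 0, 4, 8 and 24 h (SE 0.20; highest adjusted p = 2.39e-05). At 0 h the PFKL difference exceeded those of the other two subunits, though this difference between genes was not tested. After release PFKL differed from its 0 h mean by 0.76, 0.50 and -0.05 in MST-312 cells and -0.09, -0.26 and -0.39 in untreated cells at 4, 8 and 24 h (SE 0.20; adjusted p at 24 h = 0.849 and 0.0932). PFKM read 8.39, 8.56 and 8.41 at 0 h, 8.74, 8.73 and 8.77 at 4 h, 9.02, 8.87 and 8.95 at 8 h, and 8.94, 8.91 and 9.27 at 24 h with MST-312. In untreated cells PFKM read 9.54, 9.63 and 9.33 at 0 h, 9.48, 9.16 and 9.42 at 4 h, 10.07, 10.38 and 10.20 at 8 h, and 10.58, 10.88 and 10.94 at 24 h. At all 4 times the treatments were apart for PFKM, with MST-312 below. This gave PFKM differences of -1.05, -0.61, -1.27 and -1.76 at 0, 4, 8 and 24 h (SE 0.12; highest adjusted p = 0.000166). The PFKM difference was wider at 24 h than at 0 h. PFKM minus its 0 h mean was 0.29, 0.49 and 0.59 with MST-312 and -0.14, 0.72 and 1.30 in untreated cells at 4, 8 and 24 h (SE 0.12; adjusted p at 24 h = 0.000344 and 9.82e-09). The PFKM interaction at 24 h was -0.71 (SE 0.17, adjusted p = 0.00314). In MST-312 cells PFKP read 9.83, 9.84 and 9.74 at 0 h, 10.11, 9.99 and 10.15 at 4 h, 10.41, 10.14 and 10.30 at 8 h, and 9.66, 9.75 and 9.58 at 24 h. Untreated cells gave PFKP readings of 10.36, 10.33 and 10.14 at 0 h, 11.22, 11.06 and 10.91 at 4 h, 11.20, 10.96 and 11.04 at 8 h, and 10.73, 10.57 and 10.66 at 24 h. PFKP arrays of MST-312 cells lay below every untreated array at 0, 4, 8 and 24 h. For PFKP, MST-312 minus untreated was -0.47, -0.98, -0.78 and -0.99 at 0, 4, 8 and 24 h (SE 0.10; highest adjusted p = 0.000287). Against 0 h, PFKP stood at 0.28, 0.48 and -0.14 in MST-312 cells and at 0.79, 0.79 and 0.38 in untreated cells at 4, 8 and 24 h (SE 0.10; adjusted p at 24 h = 0.232 and 0.00199). The PFKP interaction was -0.52 (SE 0.14, adjusted p = 0.00640) at 24 h. The PFKL 24 h change in untreated cells passed under quantile normalization alone, the authors' processed values or a fit to the compared arrays alone (-0.39 to -0.31, adjusted p 0.0294 to 0.0388).

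PFKFB3 and PFKFB4 make and break down fructose 2,6-bisphosphate, which activates phosphofructokinase. Their treatment differences had opposite signs. PFKFB3 was higher in MST-312 cells at every time. It was 2.1-fold higher at 0 h and 1.91-fold higher at 24 h. The PFKFB3 probe read 9.86, 9.89 and 9.62 at 0 h, 12.28, 12.27 and 12.11 at 4 h, 11.75, 11.61 and 11.60 at 8 h, and 10.72, 10.60 and 10.53 at 24 h in MST-312 cells. For PFKFB3, untreated readings were 8.72, 8.78 and 8.65 at 0 h, 11.80, 11.69 and 11.66 at 4 h, 11.04, 10.86 and 10.80 at 8 h, and 9.73, 9.67 and 9.66 at 24 h. PFKFB3 arrays of MST-312 cells lay above every untreated array at 0, 4, 8 and 24 h. The PFKFB3 difference, MST-312 minus untreated, was thus 1.07, 0.50, 0.75 and 0.93 at 0, 4, 8 and 24 h (SE 0.09; highest adjusted p = 5.09e-05). The other PFKFB3 probe gave 0.58, 0.48, 0.80 and 0.78. After release PFKFB3 differed from its 0 h mean by 2.43, 1.86 and 0.83 in MST-312 cells and 3.00, 2.19 and 0.97 in untreated cells at 4, 8 and 24 h (SE 0.09; adjusted p at 24 h = 1.32e-07 and 8.58e-09). PFKFB3 thus read highest at 4 h in both treatments and less at 8 and 24 h, with a smaller change in the other probe (1.56 in MST-312 cells and 1.66 in untreated cells at 4 h, 0.43 and 0.23 at 24 h). The PFKFB3 difference at 4 h was no longer called under median scaling (0.16, adjusted p = 0.269).

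PFKFB4, the partner enzyme, was lower in MST-312 cells at 0, 8 and 24 h. It was detected on 20 of 24 arrays, and on every array in 6 of the 8 groups. PFKFB4 read 7.15, 6.90 and 6.93 at 0 h, 6.53, 6.16 and 5.93 at 4 h, 5.82, 5.88 and 5.54 at 8 h, and 5.91, 5.84 and 5.97 at 24 h with MST-312. In untreated cells PFKFB4 read 8.04, 8.18 and 8.02 at 0 h, 6.75, 6.27 and 6.39 at 4 h, 7.09, 6.80 and 6.75 at 8 h, and 7.31, 7.18 and 7.31 at 24 h. PFKFB4 arrays of MST-312 cells lay below every untreated array at 0, 8 and 24 h, and the treatments overlapped at 4 h. This gave PFKFB4 differences of -1.09, -0.26, -1.14 and -1.36 at 0, 4, 8 and 24 h (SE 0.14; adjusted p = 1.36e-06, 0.121, 8.36e-07 and 5.80e-08). PFKFB4 was not detected on any MST-312 array at 8 h, so the readings there are bounds, and it was at least 2.0-fold lower than in untreated cells at 8 h and at least 2.2-fold lower than in MST-312 cells at 0 h. Its MST-312 readings at 24 h lay near these undetected ones, so the size of its 24 h values is uncertain. With the replicate block within each time, PFKFB4 also passed at 4 h (-0.26, adjusted p = 0.0330). PFKFB4 minus its 0 h mean was -0.79, -1.25 and -1.08 with MST-312 and -1.61, -1.20 and -0.81 in untreated cells at 4, 8 and 24 h (SE 0.14; adjusted p at 24 h = 2.07e-06 and 4.88e-05). The PFKFB4 value at 4 h passed under median scaling, or on leaving out replicate 1 of MST-312 4 h (-0.42 to -0.40, adjusted p 0.0145 to 0.0241).

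Aldolase cleaves fructose 1,6-bisphosphate, and triose phosphate isomerase interconverts its products. ALDOA, ALDOC and TPI1 were all lower in MST-312 cells. In MST-312 cells ALDOA read 10.47, 10.59 and 10.39 at 0 h, 10.69, 10.59 and 10.54 at 4 h, 10.77, 10.67 and 10.86 at 8 h, and 10.97, 10.90 and 10.74 at 24 h. Untreated cells gave ALDOA readings of 10.76, 10.92 and 10.77 at 0 h, 11.08, 11.09 and 10.95 at 4 h, 11.39, 11 and 11.13 at 8 h, and 11.72, 11.48 and 11.31 at 24 h. No MST-312 array reached an untreated ALDOA array of the same time. For ALDOA, MST-312 minus untreated was -0.33, -0.44, -0.40 and -0.63 at 0, 4, 8 and 24 h (SE 0.11; adjusted p = 0.0128, 0.00177, 0.00343 and 3.85e-05). Against 0 h, ALDOA stood at 0.12, 0.28 and 0.39 in MST-312 cells and at 0.22, 0.36 and 0.69 in untreated cells at 4, 8 and 24 h (SE 0.11; adjusted p at 24 h = 0.00550 and 1.57e-05). ALDOA was higher 24 h after release in both treatments. The ALDOC probe read 8.31, 8.43 and 8.20 at 0 h, 8.17, 8.24 and 8.30 at 4 h, 7.94, 7.84 and 7.93 at 8 h, and 7.82, 7.85 and 7.85 at 24 h in MST-312 cells. For ALDOC, untreated readings were 9.55, 9.77 and 9.64 at 0 h, 9.24, 8.66 and 9.04 at 4 h, 9.34, 9.12 and 9.28 at 8 h, and 9.24, 8.90 and 9.26 at 24 h. At all 4 times the treatments were apart for ALDOC, with MST-312 below. The ALDOC difference, MST-312 minus untreated, was thus -1.34, -0.74, -1.35 and -1.29 at 0, 4, 8 and 24 h (SE 0.12; highest adjusted p = 2.03e-05). After release ALDOC differed from its 0 h mean by -0.08, -0.41 and -0.47 in MST-312 cells and -0.68, -0.41 and -0.52 in untreated cells at 4, 8 and 24 h (SE 0.12; adjusted p at 24 h = 0.00242 and 0.000826). ALDOC, known as the brain form, was lower 24 h after release in both treatments. TPI1 differed in MST-312 cells by -0.82, -0.98, -1.06 and -1.26 at 0, 4, 8 and 24 h (SE 0.09; highest adjusted p = 1.35e-07). Its other probe gave -0.61, -0.74, -0.98 and -1.36. The ALDOA difference at 0 h was no longer called on leaving out replicate 2 of untreated 0 h or replicate 3 of MST-312 0 h (-0.29 to -0.28, adjusted p 0.0550 to 0.0603). The ALDOC 24 h change in untreated cells was no longer called under median scaling (-0.33, adjusted p = 0.0509).

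**Figure D2:**
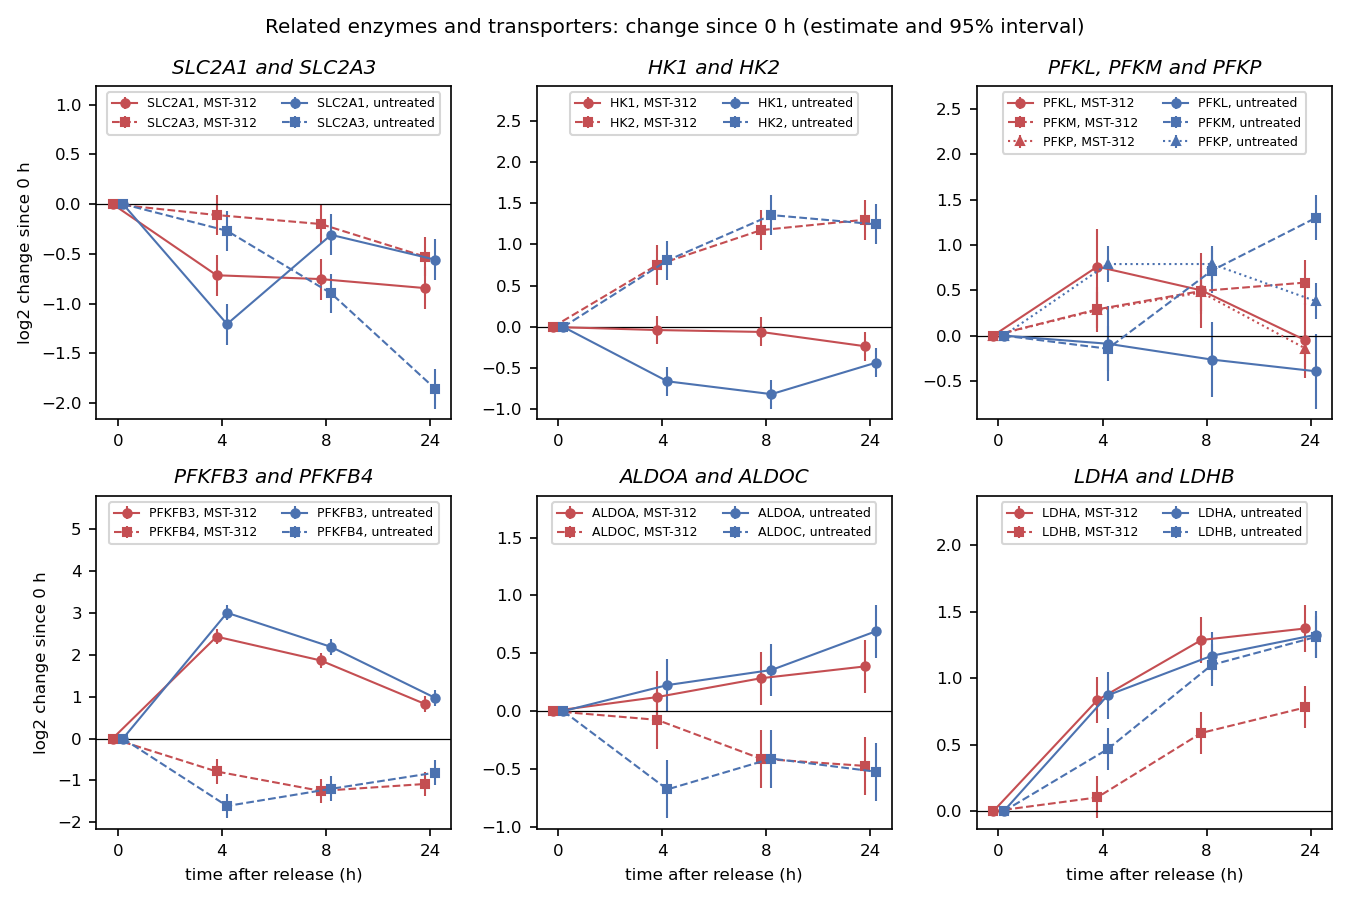
Change since 0 h (log2, vertical axis) at 0, 4, 8 and 24 h (equally spaced on the horizontal axis) for 6 sets of related genes. Red is MST-312 and blue untreated, and bars are 95% intervals of the limma estimates. SLC2A3 stands at -0.53 in MST-312 cells and -1.86 in untreated cells at 24 h, while LDHA nearly coincides at 1.37 and 1.33.

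Lower glycolysis and lactate dehydrogenase held 7 tested genes. All 7 were lower in MST-312 cells at 4, 8 and 24 h, and 6 at 0 h, where ENO1 did not pass. Over all genes, 31.7% were lower at 0 h, 32.9% at 4 h, 32.2% at 8 h and 32.9% at 24 h. The median difference was -0.53, -0.62, -0.60 and -0.69. GAPDH, the triose phosphate dehydrogenase often used as a reference gene, gave -0.63, -0.73, -0.60 and -0.62 at 0, 4, 8 and 24 h (SE 0.12; highest adjusted p = 0.000207). The other 2 GAPDH probes gave -0.68 and -0.58 at 24 h. PGK1, the first ATP-yielding enzyme, gave -0.44, -0.49, -0.74 and -0.95 at 0, 4, 8 and 24 h (SE 0.08; highest adjusted p = 9.75e-05). The other PGK1 probe gave -0.996, -0.97, -0.81 and -1.02, so the smaller early values rest on 1 probe. PGAM1, phosphoglycerate mutase, gave -0.53, -0.58, -0.46 and -0.69 at 0, 4, 8 and 24 h (SE 0.11; adjusted p = 0.000275, 0.000115, 0.00122 and 1.39e-05). A further PGAM1 probe gave -1.05 at 24 h. ENO1 encodes enolase. ENO1 read 12.73, 12.79 and 12.55 at 0 h, 13.27, 13.30 and 13.18 at 4 h, 13.62, 13.26 and 13.37 at 8 h, and 13.61, 13.46 and 13.40 at 24 h with MST-312. In untreated cells ENO1 read 12.92, 13.10 and 12.74 at 0 h, 13.93, 13.80 and 13.75 at 4 h, 14.12, 13.81 and 13.96 at 8 h, and 14.14, 13.98 and 14.06 at 24 h. ENO1 arrays of MST-312 cells lay below every untreated array at 4, 8 and 24 h, and the treatments overlapped at 0 h. This gave ENO1 differences of -0.23, -0.57, -0.55 and -0.57 at 0, 4, 8 and 24 h (SE 0.11; adjusted p = 0.0829, 0.000125, 0.000228 and 0.000130). At 0 h ENO1 passed with the replicate block within each time (-0.23, adjusted p = 0.00850). ENO1 minus its 0 h mean was 0.56, 0.73 and 0.80 with MST-312 and 0.91, 1.05 and 1.14 in untreated cells at 4, 8 and 24 h (SE 0.11; adjusted p at 24 h = 3.49e-06 and 1.67e-08). PKM encodes pyruvate kinase, whose isoforms were not analysed here. In MST-312 cells PKM read 9.19, 9.12 and 9.19 at 0 h, 9.08, 9.04 and 9.42 at 4 h, 9.41, 9.20 and 9.36 at 8 h, and 9.45, 9.45 and 9.23 at 24 h. Untreated cells gave PKM readings of 10.04, 10.07 and 10.11 at 0 h, 10.21, 10.58 and 10.07 at 4 h, 10.31, 10.08 and 10.14 at 8 h, and 10.37, 10.33 and 10.22 at 24 h. PKM arrays of MST-312 cells lay below every untreated array at 0, 4, 8 and 24 h. For PKM, MST-312 minus untreated was -0.91, -1.10, -0.85 and -0.93 at 0, 4, 8 and 24 h (SE 0.12; highest adjusted p = 2.80e-06). Against 0 h, PKM stood at 0.02, 0.16 and 0.21 in MST-312 cells and at 0.21, 0.10 and 0.23 in untreated cells at 4, 8 and 24 h (SE 0.12; adjusted p at 24 h = 0.144 and 0.0946). Other PKM probes gave larger 24 h changes of 0.63 and 0.35 in MST-312 cells and 0.67 and 0.59 in untreated cells. The PGK1 24 h change in MST-312 cells passed under the mean of all passing probes (0.29, adjusted p = 0.00155). The ENO1 value at 0 h passed under median scaling, cyclic loess, array weights or the replicate block, or on leaving out replicate 3 of untreated 0 h (-0.45 to -0.23, adjusted p 0.000386 to 0.0428). The ENO1 24 h interaction passed on leaving out replicate 2 of untreated 0 h (-0.44, adjusted p = 0.0452). The PKM 24 h change in MST-312 cells passed under median scaling or the mean of all passing probes (0.37 to 0.40, adjusted p 0.0350 to 0.0408). The PKM 24 h change in untreated cells passed under median scaling, the mean of all passing probes, array weights or a fit to the compared arrays alone, or on leaving out replicate 2 of untreated 4 h (0.23 to 0.50, adjusted p 0.00615 to 0.0496).

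LDHA and LDHB encode the subunits of lactate dehydrogenase. Both were lower in MST-312 cells at each time, and both were higher 24 h after release in each treatment. The LDHA probe read 12.12, 12.03 and 12.02 at 0 h, 12.95, 12.83 and 12.90 at 4 h, 13.47, 13.22 and 13.34 at 8 h, and 13.55, 13.33 and 13.42 at 24 h in MST-312 cells. For LDHA, untreated readings were 12.72, 12.76 and 12.61 at 0 h, 13.68, 13.48 and 13.54 at 4 h, 13.99, 13.77 and 13.84 at 8 h, and 14.07, 14.01 and 13.99 at 24 h. No MST-312 array reached an untreated LDHA array of the same time. The LDHA difference, MST-312 minus untreated, was thus -0.64, -0.68, -0.52 and -0.59 at 0, 4, 8 and 24 h (SE 0.08; highest adjusted p = 2.17e-05). After release LDHA differed from its 0 h mean by 0.84, 1.29 and 1.37 in MST-312 cells and 0.87, 1.17 and 1.33 in untreated cells at 4, 8 and 24 h (SE 0.08; adjusted p at 24 h = 5.66e-11 and 4.11e-11). The LDHA rise gave an interaction of 0.05 at 24 h that did not pass (95% interval -0.20 to 0.30; adjusted p = 0.807). The other 2 LDHA probes gave smaller 24 h changes of 1.31 and 0.74 in MST-312 cells and 1.20 and 1.04 in untreated cells, with interactions of 0.11 and -0.30. At 4 h they gave 0.68 and 0.02 and 0.88 and 0.17, so the early rise differed between probes. The probe with the smallest rise was dim, at a mean reading of 6.30 against 12.58 for the other and 13.24 for the one used. LDHB read 11.99, 11.86 and 12.09 at 0 h, 12.01, 12.07 and 12.17 at 4 h, 12.60, 12.55 and 12.55 at 8 h, and 12.73, 12.74 and 12.82 at 24 h with MST-312. In untreated cells LDHB read 12.21, 12.15 and 12.35 at 0 h, 12.74, 12.75 and 12.63 at 4 h, 13.32, 13.33 and 13.37 at 8 h, and 13.62, 13.50 and 13.51 at 24 h. At all 4 times the treatments were apart for LDHB, with MST-312 below. This gave LDHB differences of -0.26, -0.62, -0.77 and -0.79 at 0, 4, 8 and 24 h (SE 0.08; adjusted p = 0.00613, 5.27e-07, 2.93e-08 and 1.65e-08). LDHB minus its 0 h mean was 0.10, 0.59 and 0.78 with MST-312 and 0.47, 1.10 and 1.31 in untreated cells at 4, 8 and 24 h (SE 0.08; adjusted p at 24 h = 3.47e-08 and 1.00e-11). LDHB rose less in MST-312 cells, with an interaction of -0.53 (SE 0.11, adjusted p = 0.000821) at 24 h. The LDHB difference at 0 h was no longer called under a fit to the compared arrays alone (-0.26, adjusted p = 0.0575). The LDHA 8 h interaction passed under cyclic loess (0.42, adjusted p = 0.00659). The LDHA 24 h interaction passed under cyclic loess (0.30, adjusted p = 0.0324).

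The pentose phosphate genes numbered 6: 1 higher, 3 lower and 2 not passing at 0 h, then 1 higher, 4 lower and 1 not passing at 4 h, then 1 higher, 4 lower and 1 not passing at 8 h, then 0 higher, 5 lower and 1 not passing at 24 h. Over all genes, 27.6%, 26.5%, 25.6% and 28.9% were higher at these times, and 31.7%, 32.9%, 32.2% and 32.9% lower. PGLS and PGD belong to the oxidative branch, RPIA, RPE, TKT and TALDO1 to the non-oxidative branch. PGLS, the lactonase of the oxidative branch, was 1.8-fold lower in MST-312 cells at 0 h and 3.55-fold lower at 24 h. In MST-312 cells PGLS read 9.50, 9.57 and 9.40 at 0 h, 9.14, 9.17 and 9.02 at 4 h, 8.98, 8.91 and 9.09 at 8 h, and 8.26, 8.17 and 8.06 at 24 h. Untreated cells gave PGLS readings of 10.30, 10.35 and 10.36 at 0 h, 9.92, 10.02 and 9.93 at 4 h, 10.24, 10.02 and 10.09 at 8 h, and 10.11, 9.96 and 9.89 at 24 h. PGLS arrays of MST-312 cells lay below every untreated array at 0, 4, 8 and 24 h. For PGLS, MST-312 minus untreated was -0.85, -0.85, -1.12 and -1.83 at 0, 4, 8 and 24 h (SE 0.08; highest adjusted p = 2.31e-08). Against 0 h, PGLS stood at -0.38, -0.50 and -1.33 in MST-312 cells and at -0.38, -0.22 and -0.35 in untreated cells at 4, 8 and 24 h (SE 0.08; adjusted p at 24 h = 7.27e-11 and 0.00110). PGLS fell further in MST-312 cells, with an interaction of -0.98 (SE 0.12, adjusted p = 2.69e-06). PGD, phosphogluconate dehydrogenase, gave 0.06, -0.14, -0.24 and -0.56 at 0, 4, 8 and 24 h (SE 0.12; adjusted p = 0.703, 0.329, 0.104 and 0.000442). PGD passed at 8 h with the replicate block within each time (-0.24, adjusted p = 0.00995). RPIA, ribose 5-phosphate isomerase, gave -0.03, -0.29, -0.56 and -0.51 at 0, 4, 8 and 24 h (SE 0.08; adjusted p = 0.780, 0.00283, 2.62e-06 and 7.34e-06). The PGLS 24 h change in untreated cells was no longer called under median scaling (-0.12, adjusted p = 0.407). The PGD value at 4 h passed under median scaling (-0.48, adjusted p = 0.0133). The PGD value at 8 h passed under median scaling or the replicate block, or on leaving out replicate 1 of MST-312 8 h (-0.58 to -0.24, adjusted p 0.00357 to 0.0462).

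In the non-oxidative branch, RPE, ribulose-phosphate epimerase, was lower at each time. The RPE probe read 8.39, 7.98 and 8.37 at 0 h, 8.84, 8.96 and 8.95 at 4 h, 8.66, 8.47 and 8.64 at 8 h, and 8.62, 8.60 and 8.00 at 24 h in MST-312 cells. For RPE, untreated readings were 8.61, 8.57 and 8.60 at 0 h, 9.60, 9.37 and 9.39 at 4 h, 9.36, 9.33 and 9.37 at 8 h, and 9.57, 9.49 and 9.67 at 24 h. No MST-312 array reached an untreated RPE array of the same time. The RPE difference, MST-312 minus untreated, was thus -0.34, -0.54, -0.76 and -1.17 at 0, 4, 8 and 24 h (SE 0.13; adjusted p = 0.0321, 0.00167, 5.53e-05 and 1.89e-07). After release RPE differed from its 0 h mean by 0.67, 0.35 and 0.16 in MST-312 cells and 0.86, 0.76 and 0.99 in untreated cells at 4, 8 and 24 h (SE 0.13; adjusted p at 24 h = 0.340 and 2.14e-06). Its interaction at 24 h was -0.83 (SE 0.19, adjusted p = 0.00235). TKT encodes transketolase, which links both pathways. TKT read 11.52, 11.59 and 11.46 at 0 h, 11.71, 11.56 and 11.54 at 4 h, 12.02, 11.79 and 11.83 at 8 h, and 11.98, 11.77 and 11.81 at 24 h with MST-312. In untreated cells TKT read 10.86, 10.65 and 10.59 at 0 h, 11.38, 11.25 and 11.21 at 4 h, 11.67, 11.40 and 11.51 at 8 h, and 11.91, 11.73 and 11.60 at 24 h. TKT arrays of MST-312 cells lay above every untreated array at 0, 4 and 8 h, and the treatments overlapped at 24 h. This gave TKT differences of 0.82, 0.33, 0.35 and 0.11 at 0, 4, 8 and 24 h (SE 0.10; adjusted p = 5.43e-07, 0.00870, 0.00525 and 0.380). TKT was higher in MST-312 cells at 0, 4 and 8 h, and the 24 h value did not pass. TKT minus its 0 h mean was 0.08, 0.36 and 0.33 with MST-312 and 0.58, 0.83 and 1.05 in untreated cells at 4, 8 and 24 h (SE 0.10; adjusted p at 24 h = 0.00994 and 1.93e-08). The TKT rise was smaller in MST-312 cells, with an interaction of -0.72 (SE 0.14, adjusted p = 0.000704). TALDO1, transaldolase, gave -1.01, -0.65, -0.77 and -0.66 at 0, 4, 8 and 24 h (SE 0.10; highest adjusted p = 1.97e-05). The RPE difference at 0 h was no longer called under no filter on dim probes, or on leaving out replicate 1, 2 or 3 of untreated 0 h or replicate 2 of MST-312 0 h (-0.36 to -0.21, adjusted p 0.0556 to 0.203). The TKT difference at 4 h was no longer called under median scaling (0.01, adjusted p = 0.967). The TKT difference at 8 h was no longer called under median scaling (0.01, adjusted p = 0.963). The TKT 24 h change in MST-312 cells was no longer called on leaving out replicate 1 of MST-312 24 h (0.26, adjusted p = 0.0563). The RPE 24 h change in MST-312 cells passed on leaving out replicate 3 of MST-312 24 h (0.36, adjusted p = 0.0104). The TALDO1 24 h change in untreated cells passed under median scaling (0.40, adjusted p = 0.0111). The TALDO1 24 h interaction passed under cyclic loess, an intensity trend or the replicate block, or on leaving out replicate 1 of untreated 24 h (0.35 to 0.46, adjusted p 0.0203 to 0.0460).

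Pyruvate entry and oxidation held 9 tested genes: 1 higher, 6 lower and 2 not passing at 0 h, then 1 higher, 6 lower and 2 not passing at 4 h, then 0 higher, 6 lower and 3 not passing at 8 h, then 0 higher, 9 lower and 0 not passing at 24 h. The shares of all genes higher were 27.6%, 26.5%, 25.6% and 28.9%, and those lower 31.7%, 32.9%, 32.2% and 32.9%. MPC1 and MPC2 form the carrier that brings pyruvate into mitochondria. In MST-312 cells MPC1 read 9.28, 9.30 and 9.30 at 0 h, 9.38, 9.36 and 9.25 at 4 h, 9.25, 9.19 and 9.23 at 8 h, and 8.91, 8.91 and 9.04 at 24 h. Untreated cells gave MPC1 readings of 9.79, 9.65 and 9.94 at 0 h, 9.57, 9.81 and 9.75 at 4 h, 9.54, 9.52 and 9.53 at 8 h, and 9.91, 9.93 and 9.87 at 24 h. At all 4 times the treatments were apart for MPC1, with MST-312 below. For MPC1, MST-312 minus untreated was -0.50, -0.38, -0.31 and -0.95 at 0, 4, 8 and 24 h (SE 0.08; adjusted p = 1.35e-05, 0.000289, 0.00216 and 1.53e-09). The other MPC1 probe gave -0.04 at 0 h and -0.84 at 24 h. Against 0 h, MPC1 stood at 0.03, -0.07 and -0.34 in MST-312 cells and at -0.09, -0.26 and 0.11 in untreated cells at 4, 8 and 24 h (SE 0.08; adjusted p at 24 h = 0.000974 and 0.232). The MPC2 probe read 9.51, 9.52 and 9.56 at 0 h, 9.72, 9.72 and 9.82 at 4 h, 9.77, 9.70 and 9.71 at 8 h, and 9.44, 9.47 and 9.37 at 24 h in MST-312 cells. For MPC2, untreated readings were 10.19, 10.15 and 10.04 at 0 h, 10.35, 10.51 and 10.42 at 4 h, 9.82, 9.79 and 9.80 at 8 h, and 10.20, 10.14 and 10.10 at 24 h. MPC2 arrays of MST-312 cells lay below every untreated array at 0, 4, 8 and 24 h. The MPC2 difference, MST-312 minus untreated, was thus -0.59, -0.67, -0.07 and -0.72 at 0, 4, 8 and 24 h (SE 0.07; adjusted p = 1.38e-07, 2.36e-08, 0.345 and 7.47e-09). After release MPC2 differed from its 0 h mean by 0.22, 0.19 and -0.11 in MST-312 cells and 0.30, -0.32 and 0.02 in untreated cells at 4, 8 and 24 h (SE 0.07; adjusted p at 24 h = 0.184 and 0.797). Among the pyruvate dehydrogenase subunits, PDHA1 and PDHB form E1, DLAT is E2 and DLD is E3. PDHA1 gave -0.17, -0.07, -0.23 and -0.49 at 0, 4, 8 and 24 h (SE 0.08; adjusted p = 0.0692, 0.457, 0.0171 and 1.83e-05). PDHA1 passed at 0 h with the replicate block within each time (-0.17, adjusted p = 0.0472). PDHB gave -0.46, -0.46, -0.44 and -0.41 at 0, 4, 8 and 24 h (SE 0.07; highest adjusted p = 2.72e-05). DLAT gave -0.11, -0.59, -0.42 and -0.43 at 0, 4, 8 and 24 h (SE 0.11; adjusted p = 0.423, 0.000138, 0.00350 and 0.00241). DLD gave -0.31, 0.05, -0.06 and -0.31 at 0, 4, 8 and 24 h (SE 0.09; adjusted p = 0.00696, 0.651, 0.592 and 0.00776). The MPC1 24 h change in MST-312 cells was no longer called under median scaling (-0.18, adjusted p = 0.181). The PDHA1 difference at 8 h was no longer called under a fit to the compared arrays alone, or on leaving out replicate 2 or 3 of untreated 8 h or replicate 1 of MST-312 8 h (-0.23 to -0.19, adjusted p 0.0563 to 0.0870). The DLD difference at 24 h was no longer called under a fit to the compared arrays alone, or on leaving out replicate 3 of MST-312 24 h (-0.31 to -0.19, adjusted p 0.0564 to 0.0739). The MPC1 24 h change in untreated cells passed under median scaling (0.34, adjusted p = 0.0105). The MPC2 value at 8 h passed under median scaling (-0.38, adjusted p = 0.00570). The MPC2 24 h change in untreated cells passed under median scaling (0.27, adjusted p = 0.0460). The PDHA1 value at 0 h passed under median scaling, cyclic loess, an intensity trend, array weights or the replicate block, or on leaving out replicate 3 of untreated 4 h (-0.37 to -0.17, adjusted p 0.00449 to 0.0460). The PDHA1 value at 4 h passed under median scaling (-0.41, adjusted p = 0.00156). The PDHB 24 h change in MST-312 cells passed under median scaling or an intensity trend, or on leaving out replicate 2 of MST-312 24 h (0.15 to 0.37, adjusted p 0.00804 to 0.0435). The PDHB 24 h change in untreated cells passed under median scaling (0.32, adjusted p = 0.0180). The DLD value at 8 h passed under median scaling (-0.38, adjusted p = 0.0143).

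PDK3 encodes a kinase that inhibits pyruvate dehydrogenase, and CS and IDH3A act in the citric acid cycle. PDK3 read 8.06, 8.18 and 8.17 at 0 h, 7.31, 7.04 and 7.20 at 4 h, 7.39, 7.56 and 7.18 at 8 h, and 7.79, 7.91 and 8.02 at 24 h with MST-312. In untreated cells PDK3 read 8.72, 8.74 and 8.78 at 0 h, 8.05, 8.03 and 8.07 at 4 h, 8.30, 8.01 and 8.32 at 8 h, and 8.54, 8.47 and 8.64 at 24 h. No MST-312 array reached an untreated PDK3 array of the same time. This gave PDK3 differences of -0.61, -0.86, -0.84 and -0.64 at 0, 4, 8 and 24 h (SE 0.10; highest adjusted p = 2.51e-05). The other PDK3 probe gave -0.20, -0.14, -0.38 and -0.10. PDK3 minus its 0 h mean was -0.95, -0.76 and -0.22 with MST-312 and -0.70, -0.53 and -0.20 in untreated cells at 4, 8 and 24 h (SE 0.10; adjusted p at 24 h = 0.0727 and 0.0956). CS, citrate synthase, differed in direction with time. In MST-312 cells CS read 12.24, 12.17 and 12.15 at 0 h, 12.33, 12.26 and 12.16 at 4 h, 12.25, 12.20 and 12.25 at 8 h, and 12.17, 12.19 and 12.13 at 24 h. Untreated cells gave CS readings of 11.83, 11.99 and 11.85 at 0 h, 12.09, 12.01 and 12.02 at 4 h, 12.29, 12.07 and 12.15 at 8 h, and 12.47, 12.37 and 12.55 at 24 h. CS arrays of MST-312 cells lay above every untreated array at 0 and 4 h and below every untreated array at 24 h, and the treatments overlapped at 8 h. For CS, MST-312 minus untreated was 0.29, 0.21, 0.06 and -0.30 at 0, 4, 8 and 24 h (SE 0.07; adjusted p = 0.00187, 0.0203, 0.483 and 0.00159). CS was higher in MST-312 cells at 0 and 4 h and lower at 24 h, though its 4 h value turned to -0.14 under median scaling. Other CS probes gave 0.19 and 0.11 at 0 h, 0.08 and -0.16 at 4 h, 1 of them the other way, and -0.38 and -0.58 at 24 h. Against 0 h, CS stood at 0.06, 0.05 and -0.02 in MST-312 cells and at 0.15, 0.28 and 0.57 in untreated cells at 4, 8 and 24 h (SE 0.07; adjusted p at 24 h = 0.845 and 1.21e-06). IDH3A, a subunit of isocitrate dehydrogenase, gave -1.05, -0.72, -0.85 and -0.71 at 0, 4, 8 and 24 h (SE 0.15; highest adjusted p = 0.000371). The CS difference at 0 h was no longer called under median scaling, cyclic loess or the mean of all passing probes (0.06 to 0.20, adjusted p 0.0510 to 0.671). The CS difference at 4 h was no longer called under median scaling, cyclic loess, the mean of all passing probes or a fit to the compared arrays alone, or on leaving out replicate 2 or 3 of untreated 4 h or replicate 1 of MST-312 4 h (-0.14 to 0.21, adjusted p 0.0512 to 0.704). The IDH3A 24 h change in untreated cells was no longer called on leaving out replicate 3 of untreated 0 h or replicate 1 of untreated 24 h (0.28 to 0.38, adjusted p 0.0616 to 0.113). The PDK3 24 h change in MST-312 cells passed under cyclic loess, or on leaving out replicate 3 of MST-312 24 h (-0.28 to -0.26, adjusted p 0.0424 to 0.0468). The CS value at 8 h passed under median scaling (-0.30, adjusted p = 0.0148).

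**Figure D3:**
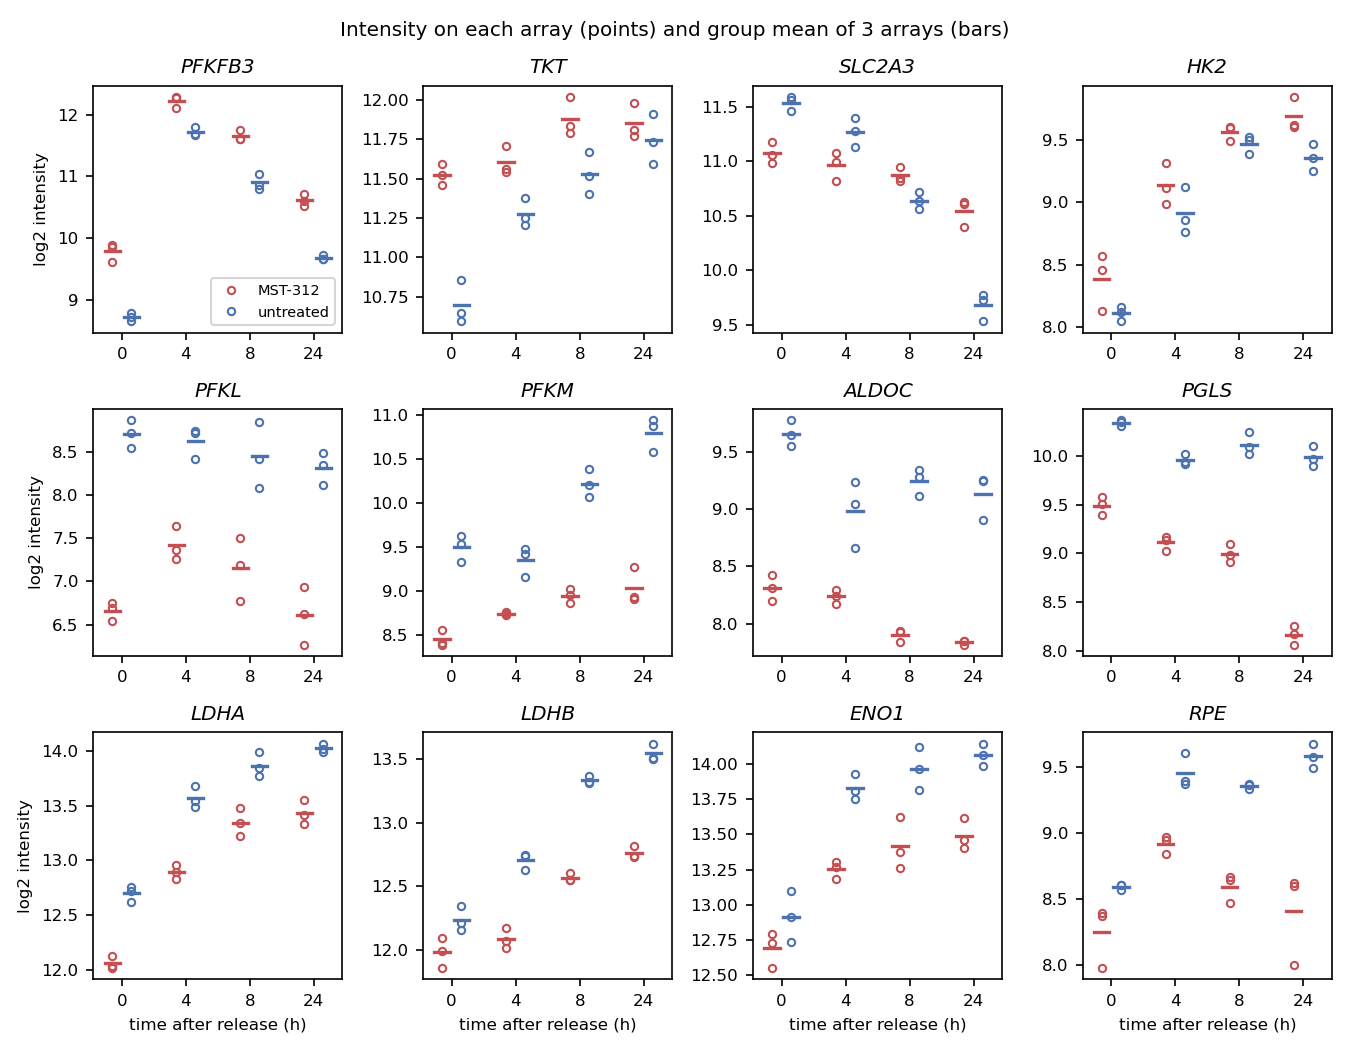
Log2 readings on each array for 12 of the genes, with MST-312 points left of untreated points at each of 0, 4, 8 and 24 h and a bar at each group mean of 3 arrays. PFKFB3 peaks at 4 h in both treatments, and SLC2A3 is higher in MST-312 than in untreated cells at 24 h (difference 0.86).

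The second question was how the genes changed after release, within each treatment. The 4, 8 and 24 h comparisons of a treatment share its 0 h arrays. More genes were higher than lower at 4, 8 and 24 h in both treatments. In MST-312 cells, 12 were higher and 4 lower at 4 h (all genes: 18.1% and 18%), 19 and 5 at 8 h (18.9% and 22%), and 18 and 7 at 24 h (24.5% and 26.5%). In untreated cells, 15 were higher and 7 lower at 4 h (22.8% and 22.1% of all genes), 19 and 9 at 8 h (24.8% and 26.4%), and 22 and 6 at 24 h (29% and 30.5%). Their median change at 24 h was 0.33 in MST-312 cells and 0.57 in untreated cells, against -0.02 and -0.02 over all genes. At 24 h, 17 of the 35 were higher in both treatments and 6 lower in both, against 17.4% and 18.1% of all genes, and 5 did not pass in either. CS, RPE, PFKP, PGD and PGK1 passed as higher in untreated cells without passing in MST-312 cells, TALDO1 the other way, and MPC1 passed as lower in MST-312 cells. For PGK1 this rests on 1 probe, since the other changed by 0.56 in MST-312 cells and 0.59 in untreated cells. Passing in 1 treatment does not show a difference between them. Because both treatments were set against their own 0 h arrays, they share no samples. GAPDH changed by 0.63 in MST-312 cells and 0.62 in untreated cells at 24 h (adjusted p = 0.000144 and 0.000125).

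**Figure D4:**
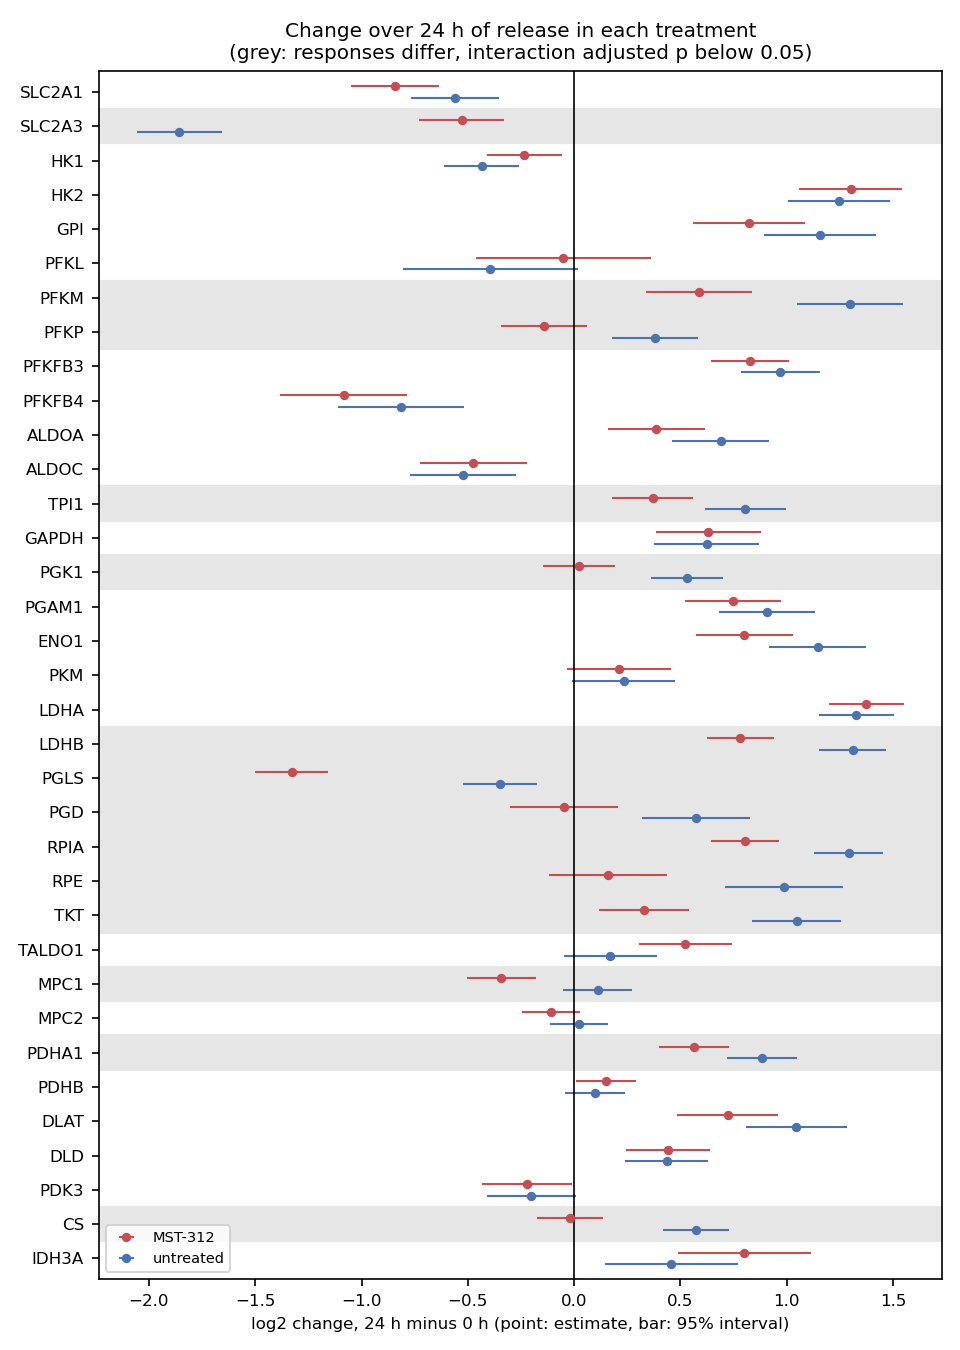
Change from 0 to 24 h after release (log2, horizontal axis) for each gene (rows), with MST-312 above untreated in each row and 95% intervals of the limma estimates as bars. Rows shaded grey passed the test of the 24 h interaction. LDHA and HK2 stand at 1.37 and 1.30 in MST-312 cells and 1.33 and 1.25 in untreated cells, and SLC2A3 is the lowest in untreated cells at -1.86.

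The promoters of these genes were set beside the release data because MYC binds the letters CACGTG, which read the same on both strands. In RefSeq windows on GRCh38.p14 of 300 bases, 250 before and 50 after each start, 37 of the 39 genes had an entry, with 66 windows. SLC2A3 and SLC16A1 had none. CACGTG stood in 7 of the 37 genes (18.9%), against 8.77% of all 27305 genes in the table, and in 10.6% of their windows against 7.26% of all 35116. The shorter ACGTG, which overlaps CACGTG, stood in 48.6% of the 37 genes on either strand, against 24.9% of all, and in 33.3% of their windows against 21.4% of all. These genes had more windows each than the table as a whole. Of the 34 tested genes with an entry, 20.6% held CACGTG and 44.1% ACGTG. The reference of 27305 genes is not limited to genes tested here. HK2 and LDHA are shown because both hold CACGTG at 2 places, the most matches among these genes. In the windows shown, it stands 194 and 149 bases before the start in HK2 and 185 and 87 before it in LDHA. Both rose after release in both treatments, but they were chosen by the number of matches. ALDOA and ALDOC are shown as the first by symbol of those with 1 match. ALDOA holds CACGTG 112 bases before the start and ALDOC 240, and ALDOA was higher and ALDOC lower 24 h after release. HK2, LDHA and ALDOA also have windows at other starts, and those hold no CACGTG. The windows lie at chr2:74834920-74835219 on the plus strand, chr11:18394313-18394612 on the plus strand, chr16:30064247-30064546 on the plus strand and chr17:28576846-28577145 on the minus strand, with CACGTG in capitals. GAPDH, PDHB and PFKFB3 also hold it. A match to these letters is a description and not a bound site.
HK2: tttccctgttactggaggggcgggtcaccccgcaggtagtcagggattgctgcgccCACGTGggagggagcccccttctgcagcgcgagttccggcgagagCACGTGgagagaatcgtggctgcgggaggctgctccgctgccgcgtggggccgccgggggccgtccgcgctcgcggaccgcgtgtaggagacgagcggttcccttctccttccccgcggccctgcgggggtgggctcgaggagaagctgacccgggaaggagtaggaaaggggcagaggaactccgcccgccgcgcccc
LDHA: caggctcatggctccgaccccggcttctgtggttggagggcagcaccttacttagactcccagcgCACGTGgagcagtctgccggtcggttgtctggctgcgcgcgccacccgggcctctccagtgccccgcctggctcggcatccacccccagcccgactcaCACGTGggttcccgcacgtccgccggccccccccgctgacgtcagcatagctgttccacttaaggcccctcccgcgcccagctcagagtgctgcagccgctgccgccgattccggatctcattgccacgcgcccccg
ALDOA: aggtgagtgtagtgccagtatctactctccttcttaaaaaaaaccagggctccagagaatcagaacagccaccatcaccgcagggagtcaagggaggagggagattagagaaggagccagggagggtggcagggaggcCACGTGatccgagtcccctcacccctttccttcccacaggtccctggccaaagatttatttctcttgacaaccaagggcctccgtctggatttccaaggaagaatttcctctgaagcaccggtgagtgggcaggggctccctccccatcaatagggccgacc
ALDOC: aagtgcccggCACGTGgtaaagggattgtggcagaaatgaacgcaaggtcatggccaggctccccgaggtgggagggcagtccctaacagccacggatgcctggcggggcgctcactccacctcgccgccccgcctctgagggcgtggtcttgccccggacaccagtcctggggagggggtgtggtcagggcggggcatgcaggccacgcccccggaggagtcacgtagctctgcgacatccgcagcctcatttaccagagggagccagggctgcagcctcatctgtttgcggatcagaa

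The third question was whether the change since 0 h differed between treatments, tested as the MST-312 change minus the untreated change. At 24 h, 13 of the 35 had a lower change in MST-312 cells and 1, SLC2A3, a higher one, against 15.4% and 14.5% of all genes. At 4 h 5 were higher and 5 lower (11.3% and 11.5% of all genes), and at 8 h 3 and 4 (10.1% and 10.1%). The pentose phosphate genes gave 5 of the 13 lower interactions at 24 h, namely PGLS, PGD, RPIA, RPE and TKT. Those of PGD and RPIA were -0.62 and -0.49 (SE 0.17 and 0.11; adjusted p = 0.00949 and 0.00201). The other lower ones were PFKM, PFKP, TPI1, PGK1, LDHB, MPC1, PDHA1 and CS. For PGK1, at -0.51 (SE 0.12, adjusted p = 0.00225), the other probe gave -0.03. MPC1 stood at -0.45, PDHA1 at -0.32, TPI1 at -0.43 and CS at -0.59 (adjusted p = 0.00393, 0.0366, 0.0146 and 0.000233). Of these 13, 11 passed under all 38 alternatives. The TPI1 24 h interaction was no longer called under median scaling (-0.44, adjusted p = 0.0749). The PDHA1 24 h interaction was no longer called under median scaling or no filter on dim probes, or on leaving out replicate 1, 2 or 3 of untreated 0 h, replicate 2 or 3 of untreated 24 h, replicate 1, 2 or 3 of MST-312 0 h or replicate 1 or 2 of MST-312 24 h (-0.37 to -0.27, adjusted p 0.0512 to 0.0935). With the replicate block within each time, the counts became 8 higher and 6 lower at 4 h, 4 and 7 at 8 h, and 2 and 14 at 24 h. Of all genes, 13.9% were then higher and 14.5% lower at 4 h, 12.1% and 12.9% at 8 h, and 17% and 18% at 24 h. The block added the calls of PFKM at 4 h (0.43, adjusted p = 0.0427), ENO1 at 4 h (-0.35, adjusted p = 0.0142), TALDO1 at 4 h (0.36, adjusted p = 0.0246), DLD at 4 h (0.37, adjusted p = 0.0249), PFKL at 8 h (0.76, adjusted p = 0.0416), PFKFB3 at 8 h (-0.32, adjusted p = 0.0234), ENO1 at 8 h (-0.32, adjusted p = 0.0232), PGD at 8 h (-0.29, adjusted p = 0.0451), ENO1 at 24 h (-0.34, adjusted p = 0.0116) and TALDO1 at 24 h (0.35, adjusted p = 0.0223). The HK1 interaction was 0.75 (SE 0.12, adjusted p = 0.000131) at 8 h and 0.20 at 24 h, where it did not pass (adjusted p = 0.222). At 8 h that of HK2 was -0.18 (95% interval -0.52 to 0.16; adjusted p = 0.496), and the difference between these genes was not tested.

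Other genes of these pathways, 45 in number of which 35 were tested, were described in the same way. MST-312 cells had 17 lower and 4 higher at 0 h, 16 and 2 at 4 h, 14 and 2 at 8 h, and 16 and 6 at 24 h, with a median of -0.24 at 24 h. Of all genes, 31.7% were lower and 27.6% higher at 0 h, 32.9% and 26.5% at 4 h, 32.2% and 25.6% at 8 h, and 32.9% and 28.9% at 24 h. SUCLG2, a subunit of succinyl-CoA ligase, differed by -1.69, -1.78, -1.61 and -2.54 at 0, 4, 8 and 24 h (SE 0.11; adjusted p = 1.30e-13 at 24 h). IDH3G, a subunit of isocitrate dehydrogenase, gave -2.35 at 0 h and -1.81 at 24 h, and its other probe -0.60 and 0.08. PRPS2, which makes the ribose donor for nucleotides, stood at -1.33 at 24 h (SE 0.13; adjusted p = 1.65e-08).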

How the data were processed

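Total RNA of P493 cells was measured on 24 arrays of Illumina beadchips as biotinylated cRNA, per the labels. Per the file headers, the deposited raw values are an intensity and a detection p-value per probe. A deposited value table holds the authors' processed intensity, linear and with nearly equal medians. How it was made is not stated, but its log2 values differed from quantile normalization of the raw intensities without background correction by at most 7.1e-10, so these alternatives are 1 analysis. Log2 readings were computed here from the deposited intensities with neqc (limma 3.58.1, R 4.3.3, offset 16). A probe was kept if its detection p was below 0.05 on all 3 arrays of a group, leaving 17882, of which 13518 carried a single symbol (1 gene). Genes were represented by their brightest probe on average, giving 10246 genes. One limma model of 8 group means gave 13 comparisons, two-sided, with Benjamini-Hochberg adjustment over all genes and 16 residual degrees of freedom. On simulated data for the 24 h treatment comparison, 200 of 10246 genes were changed. Of these, 89% of genes changed by 1 log2 unit and 46% of those changed by 0.5 were recovered. In the measured comparison 32.9% of all genes were lower and 28.9% higher, so these rates need not hold there. With 3 arrays a group, their number limits the precision. Chip and scan were not analysed here.

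The genes and lists were chosen with earlier results of these data known. Readings on every array are given for related genes, whatever their change, and for the 3 largest rises and falls in each treatment comparison and the 3 largest changes in each 24 h release comparison and the 24 h interaction. At each time, same-numbered arrays of both treatments deviated together in all 12 pairs (correlation 0.110 to 0.378), so the numbers pair them there. They did not do so in every release comparison. The alternatives were 14 settings, 13 of them distinct, and leaving out each of 24 arrays.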

Additional observations from a re-analysis of the deposited data

Results flagged for a closer look

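The values here were picked out because a test of the difference itself, the MST-312 change since 0 h minus the untreated change, passed for 31 gene and time pairs (limma, adjusted p below 0.05). Of all genes, 11.3% had a higher and 11.5% a lower interaction at 4 h. The shares were 10.1% and 10.1% at 8 h, and 14.5% and 15.4% at 24 h. Of the 35, 14.3% and 14.3% passed at 4 h and 8.57% and 11.4% at 8 h, near those of all genes. By 24 h they were 2.86% and 37.1%. At 4 h the interaction was higher for SLC2A1 at 0.49, HK1 at 0.62, PFKL at 0.85, PFKFB4 at 0.82 and ALDOC at 0.60. It was lower for PFKP at -0.51, PFKFB3 at -0.57, LDHB at -0.36, TKT at -0.50 and DLAT at -0.48. At 8 h the interaction was higher for SLC2A3 at 0.70, HK1 at 0.75 and MPC2 at 0.52. It was lower for SLC2A1 at -0.44, LDHB at -0.51, RPIA at -0.54 and TKT at -0.47. At 24 h the interaction was higher for SLC2A3 at 1.33. It was lower for PFKM at -0.71, PFKP at -0.52, TPI1 at -0.43, PGK1 at -0.51, LDHB at -0.53, PGLS at -0.98, PGD at -0.62, RPIA at -0.49, RPE at -0.83, TKT at -0.72, MPC1 at -0.45, PDHA1 at -0.32 and CS at -0.59. For several of these at 4 and 8 h the call rests on some arrays or settings. The SLC2A1 4 h interaction was no longer called under median scaling (0.35, adjusted p = 0.160). The SLC2A1 8 h interaction was no longer called under cyclic loess, or on leaving out replicate 1 or 3 of untreated 0 h, replicate 3 of untreated 8 h, replicate 2 of MST-312 0 h or replicate 3 of MST-312 8 h (-0.43 to -0.34, adjusted p 0.0581 to 0.0960). The HK1 4 h interaction was no longer called under median scaling (0.47, adjusted p = 0.0829). The PFKL 4 h interaction was no longer called under median scaling or no filter on dim probes, or on leaving out replicate 2 or 3 of untreated 0 h, replicate 1 of untreated 4 h, replicate 2 or 3 of MST-312 0 h or replicate 1 of MST-312 4 h (0.60 to 0.87, adjusted p 0.0513 to 0.159). The PFKFB3 4 h interaction was no longer called under the mean of all passing probes (-0.34, adjusted p = 0.0875). The ALDOC 4 h interaction was no longer called under median scaling (0.38, adjusted p = 0.205). The LDHB 4 h interaction was no longer called under median scaling, cyclic loess or a fit to the compared arrays alone, or on leaving out replicate 2 of untreated 0 h, replicate 3 of MST-312 0 h or replicate 1 of MST-312 4 h (-0.41 to -0.23, adjusted p 0.0521 to 0.126). The TKT 8 h interaction was no longer called under cyclic loess, or on leaving out replicate 2 or 3 of untreated 0 h, replicate 1 of untreated 8 h, replicate 2 of MST-312 0 h or replicate 2 or 3 of MST-312 8 h (-0.45 to -0.36, adjusted p 0.0521 to 0.0771). The MPC2 8 h interaction was no longer called under median scaling (0.37, adjusted p = 0.121). The DLAT 4 h interaction was no longer called under no filter on dim probes or a fit to the compared arrays alone, or on leaving out replicate 1 or 2 of untreated 0 h, replicate 2 or 3 of untreated 4 h, replicate 1 or 3 of MST-312 0 h or replicate 1 or 3 of MST-312 4 h (-0.50 to -0.36, adjusted p 0.0535 to 0.107).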

How the results depend on the processing

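Of 6160 gene values under 14 other settings, 5886 kept their direction and side of the threshold, 65 changed sign without passing in either, 98 lost the call, 108 gained one and 3 reversed. Of 10920 values with 1 array left out, 10626 kept both, 84 changed sign without passing, 169 lost the call and 41 gained one. The 3 reversals came with median scaling: SLC2A3 at 8 h -0.11 (adjusted p = 0.460; 0.23 and 0.0429 as reported), CS at 4 h -0.14 (adjusted p = 0.250; 0.21 and 0.0203 as reported) and CS at 8 h -0.30 (adjusted p = 0.0148; 0.06 and 0.483 as reported), all MST-312 minus untreated, and the cause was not tested. Median scaling gave, of the 35, 2 (against 4) higher with MST-312 at 0 h, 1 (against 4) higher with MST-312 at 4 h, 1 (against 3) higher with MST-312 at 8 h, 6 (against 12) higher at 4 h after release in MST-312 cells, 4 (against 9) lower at 8 h after release in untreated cells, 3 (against 6) lower at 24 h after release in untreated cells and 1 (against 5) with a higher interaction at 4 h and, of the other pathway genes, 2 (against 4) higher with MST-312 at 0 h, 0 (against 2) higher with MST-312 at 4 h, 0 (against 2) higher with MST-312 at 8 h, 22 (against 14) lower with MST-312 at 8 h, 3 (against 6) higher with MST-312 at 24 h, 1 (against 3) lower at 8 h after release in MST-312 cells, 1 (against 3) lower at 24 h after release in MST-312 cells, 3 (against 5) lower at 4 h after release in untreated cells, 2 (against 5) lower at 8 h after release in untreated cells and 3 (against 5) with a lower interaction at 24 h. The counts listed for each alternative are those that moved past a ratio fixed for all, and smaller shifts are mostly left out. Among the latter, median scaling gave 14 (against 19) of the 35 higher in MST-312 cells at 8 h after release (15.8% of all genes). It gave 27 (against 22) higher in untreated cells at 24 h (33.7%), and 11 (against 13) with a lower interaction at 24 h. Under median scaling 18.4%, 14%, 13.8% and 19.7% of all genes were higher with MST-312 at 0, 4, 8 and 24 h. At 8 h 43% were lower. After release, 12% were higher at 4 h in MST-312 cells, with 16.6% and 18.7% lower at 8 and 24 h. In untreated cells 15.2%, 18.4% and 22.6% were lower at 4, 8 and 24 h. Interactions were higher for 5.17% at 4 h and lower for 12.6% at 24 h. Cyclic loess gave, of the 35, 2 (against 4) higher with MST-312 at 0 h, 2 (against 4) with a lower interaction at 8 h and 3 (against 1) with a higher interaction at 24 h and, of the other pathway genes, 4 (against 2) with a higher interaction at 8 h. Under cyclic loess 24.7% of all genes were higher with MST-312 at 0 h. Interactions there were lower for 7.81% and higher for 12.3% at 8 h, and higher for 15.2% at 24 h. The mean of all passing probes gave, of the 35, 2 (against 4) higher with MST-312 at 0 h and, of the other pathway genes, 1 (against 2) higher with MST-312 at 4 h. By that mean, 27.7% and 26.6% of all genes were higher with MST-312 at 0 and 4 h. The replicate block within each time gave, of the 35, 8 (against 5) with a higher interaction at 4 h, 7 (against 4) with a lower interaction at 8 h and 2 (against 1) with a higher interaction at 24 h and, of the other pathway genes, 4 (against 2) with a higher interaction at 4 h, 5 (against 3) with a lower interaction at 4 h, 4 (against 2) with a higher interaction at 8 h and 5 (against 3) with a higher interaction at 24 h. With that block, interactions were higher for 13.9% and lower for 14.5% of all genes at 4 h. They were higher for 12.1% and lower for 12.9% at 8 h, and higher for 17% at 24 h. A fit to the compared arrays alone gave, of the 35, 3 (against 5) with a lower interaction at 4 h and, of the other pathway genes, 1 (against 2) higher with MST-312 at 4 h, 3 (against 6) higher with MST-312 at 24 h, 3 (against 5) lower at 4 h after release in MST-312 cells and 1 (against 3) lower at 8 h after release in MST-312 cells. Under that fit 10.5% of all genes had a lower interaction at 4 h. With MST-312, 25.1% and 27.7% were higher at 4 and 24 h. In MST-312 cells 16.7% and 19.1% were lower at 4 and 8 h after release. An intensity trend gave, of the 35, 2 (against 1) with a higher interaction at 24 h (14.9% of all genes). The replicate block gave, of the 35, 2 (against 1) with a higher interaction at 24 h and, of the other pathway genes, 5 (against 3) with a higher interaction at 24 h (16.1% of all genes). Array weights gave, of the other pathway genes, 4 (against 2) higher with MST-312 at 8 h (28.2% of all genes). Leaving out 1 array at a time gave, of the 35, 3 to 5 (against 5) with a lower interaction at 4 h, 2 to 5 (against 4) with a lower interaction at 8 h and 1 to 2 (against 1) with a higher interaction at 24 h and, of the other pathway genes, 2 to 5 (against 4) higher with MST-312 at 0 h, 1 to 2 (against 2) higher with MST-312 at 4 h, 1 to 3 (against 3) lower at 8 h after release in MST-312 cells, 3 to 5 (against 5) lower at 4 h after release in untreated cells, 3 to 6 (against 5) lower at 8 h after release in untreated cells, 2 to 4 (against 4) lower at 24 h after release in untreated cells and 1 to 2 (against 2) with a lower interaction at 8 h. Leaving out 1 array also gave 8 to 13 (against 12) of the 35 higher at 4 h after release in MST-312 cells. At 8 h it gave 14 to 19 (against 19). Higher interactions at 4 h numbered 4 to 7 (against 5). Shares of all genes were not computed with an array left out. In the fit reported, 18.1% and 18.9% of all genes were higher at 4 and 8 h in MST-312 cells. Its interactions were higher for 11.3% and lower for 11.5% at 4 h, lower for 10.1% at 8 h and higher for 14.5% at 24 h. The replicate block within each time, the paired fit of the treatment comparisons, changed no treatment or interaction calls of the 35 beyond those given with the results, and 22 of 24 arrays correlated best with their own number. Precision is limited by 3 arrays a group, and PFKFB4 in MST-312 cells at 8 h by its signal over background.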

Other observations

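Of the 35 other pathway genes tested, 12 were higher and 3 lower in MST-312 cells 24 h after release, against 24.5% and 26.5% of all genes. The largest values were those of BPGM at 0.91, GPD1L at 0.90 and PGM2 at 0.76 (highest adjusted p = 0.000244). Of the 35 such pathway genes tested, 15 were higher and 4 lower in untreated cells 24 h after release, against 29% and 30.5% of all genes. The largest values were those of PRPS2 at 1.19, GPD1L at 1.08 and ME2 at 1.07 (highest adjusted p = 1.12e-07). Of the 35 such pathway genes tested, 3 were higher and 5 lower for the 24 h interaction, against 14.5% and 15.4% of all genes. The largest values were those of BPGM at 0.97, SUCLG2 at -0.85 and PRPS2 at -0.75 (highest adjusted p = 0.00486).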
